A study of Arabidopsis thaliana with 8 samples.

Results

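The levels of 4 Arabidopsis transcripts that belong to protein folding were compared in leaves of wild-type (WT) and VaNAC26 overexpressing (OE) plants, among 22746 probe sets measured. The 4 were BIP3 (At1g09080) of the endoplasmic reticulum, BZIP60 (At1g42990), a regulator of the unfolded protein response, Hsp70-2 (At5g02490) of the cytosol and Cpn60beta2 (At3g13470) of the chloroplast. They were chosen by name to set these 3 compartments side by side, and each was measured by 1 probe set, which were 264648_at, 259626_at, 250994_at and 256983_at in that order. The probe annotation of the array named 3 of them. The probe set of BIP3 is not listed in it and was paired with the gene through the locus column of a supplementary table of called genes, so BIP3 is described by itself and stays out of the counts of gene lists. RNA was hybridized to 8 ATH1 arrays, 2 for each genotype at each of the times 0d and 5d, in groups named WT 0d, WT 5d, OE 0d and OE 5d. WT was Col-0, and the OE plants carried the NAC transcription factor gene VaNAC26 of the grapevine Vitis amurensis behind the constitutive CaMV 35S promoter. Each OE sample pooled equal amounts of leaves of 3 independent T4 lines, so that differences between the lines cannot be seen. Plants grown in soil were 21 d old at 0d, when they had been watered, and the 5d leaves came from the same kinds of plants after 5 d without watering. No group was watered until 5d, so water deficit, plant age and sampling day cannot be told apart in any comparison of 5d with 0d.

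When unfolded proteins build up in the endoplasmic reticulum of a plant cell, the membrane protein IRE1 splices the mRNA of BZIP60, and the shortened mRNA encodes a transcription factor that enters the nucleus and turns on genes for folding and for the removal of misfolded proteins. BiP proteins are the Hsp70 chaperones of the lumen of the endoplasmic reticulum, and BIP3 is the member that is low in unstressed leaves and induced by endoplasmic reticulum stress. Cytosolic Hsp70 proteins bind stretches of unfolded chain on newly made or damaged proteins and work with J-domain proteins, nucleotide exchange factors and Hsp90. In the chloroplast, the barrel-shaped chaperonin built of Cpn60 alpha and beta subunits encloses and folds proteins, with the large subunit of Rubisco as its best known client. In the cytosol a related barrel, the chaperonin CCT, folds actin and tubulin.

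The intensities below are linear (not log) values, given for replicate 1 and then replicate 2. Over all arrays they ran from 2.91 to 13003, and 47.8% of them were under 32, a level that was taken here as close to background. Changes are differences of mean log2 intensity from limma, fitted to all 8 arrays with 4 residual degrees of freedom, with p-values adjusted over the 22746 probe sets, and "rose" or "fell" is written of a transcript only at an adjusted p under 0.05. The OE 5d arrays stood apart from each other, with a more than 2-fold difference at 1294 probe sets against 79 to 143 in the other groups, and this holds for 2 of the 4 genes, BIP3 and Hsp70-2. Nothing in the labels says whether the replicates were separate plants, and the p-values reflect the spread among these 8 samples alone, which may be technical. The labelled tissue was leaf: RCA, the activase of Rubisco, lay between 6992 and 9858 on all arrays, and CLV3 of the shoot apex between 4.11 and 6.46. The root marker PYK10 was above 32 before drought, at 139 and 101 in WT 0d and 61.7 and 40.5 in OE 0d. Why it was measured there was not tested.

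BIP3 was close to background before drought and clearly measured in WT after it. Its intensities were 16.7 and 14.7 in WT 0d, 11.6 and 14.5 in OE 0d, 166 and 175 in WT 5d, and 18.2 and 107 in OE 5d. Both WT 5d arrays were above all others, the OE 5d arrays lay far apart, and OE 5d replicate 1 was nearly as low as the arrays taken before drought. In WT, BIP3 rose by 3.44 on the log2 scale (standard error 0.66, 95% interval 1.92 to 4.95, adjusted p = 0.00573), from a mean intensity of 15.7 ± 1.42 to 171 ± 5.80 (SD, n = 2 each). Because all 0d arrays were under 32, the size of this change is uncertain, and with values under 32 set to 32 it was 2.41 and did not pass the test (adjusted p = 0.0642). In OE the mean was 13.0 ± 2.05 at 0d and 62.4 ± 62.5 at 5d (SD, n = 2 each), with a log2 fold change of 1.76 (95% interval 0.25 to 3.28) that did not pass (adjusted p = 0.123). OE 5d replicate 1 was under 32 as well, and with values under 32 set to 32 the OE change was 0.87 (adjusted p = 0.615). In this bulk leaf RNA, fewer cells with the transcript and less of it per cell cannot be told apart.

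BZIP60 was well above background in every group and rose in both genotypes. Its intensities were 212 and 251 in WT 0d, 211 and 265 in OE 0d, 575 and 751 in WT 5d, and 430 and 601 in OE 5d. All 5d arrays were above all 0d arrays, and the arrays of the 2 genotypes overlapped at both times. In WT the mean went from 231 ± 27.1 to 663 ± 125 (SD, n = 2 each), with a log2 fold change of 1.51 (standard error 0.22, 95% interval 1.0 to 2.02, adjusted p = 0.00199). In OE it went from 238 ± 37.9 to 515 ± 120 (SD, n = 2 each), which is a log2 fold change of 1.11 (95% interval 0.60 to 1.61, adjusted p = 0.0165). The OE call was lost with the 4 arrays of the comparison alone (adjusted p = 0.0786), with values under 32 set to 32 (adjusted p = 0.0931), and without OE 0d replicate 1 (0.94, adjusted p = 0.122) or replicate 2 (1.27, adjusted p = 0.0760), while the direction was the same in each. No BZIP60 value was under 32, so setting values to 32 left its change at 1.11. That setting acted only through the spread and the p adjustment shared with other probe sets. The probe set gives 1 value for the gene, so the spliced and unspliced forms of the BZIP60 mRNA are not separated here.

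Hsp70-2 was low but measured before drought and rose in WT. Its intensities were 69.4 and 82.2 in WT 0d, 68.7 and 68.3 in OE 0d, 365 and 482 in WT 5d, and 76.5 and 218 in OE 5d. As with BIP3, both WT 5d arrays were above all others, and OE 5d replicate 1 lay within the range of the 0d arrays. The WT mean went from 75.8 ± 9.04 to 423 ± 83.2 (SD, n = 2 each), with a log2 fold change of 2.47 (standard error 0.41, 95% interval 1.52 to 3.43, adjusted p = 0.00338). The OE mean went from 68.5 ± 0.292 to 147 ± 100 (SD, n = 2 each), which is a log2 fold change of 0.91 (95% interval -0.04 to 1.87) that did not pass (adjusted p = 0.199). Cytosolic Hsp70 genes are alike in sequence, and whether RNA of its relatives adds to this probe set was not tested.

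Cpn60beta2, in contrast, was among the brighter transcripts before drought and fell in both genotypes. Its intensities were 1103 and 1028 in WT 0d, 853 and 945 in OE 0d, 151 and 115 in WT 5d, and 183 and 154 in OE 5d. No 5d array came near any 0d array. The OE mean was below the WT mean before drought and above it after, and by limma neither difference passed (adjusted p = 0.776 and 0.363). The WT mean fell from 1066 ± 53.4 to 133 ± 25.2 (SD, n = 2 each), with a log2 fold change of -3.02 (standard error 0.17, 95% interval -3.42 to -2.62, adjusted p = 0.000418). The OE mean fell from 899 ± 64.9 to 168 ± 20.3 (SD, n = 2 each), which is a log2 fold change of -2.42 (95% interval -2.82 to -2.02, adjusted p = 0.00110). The transcript was at 96.8% of the ranking of all probe sets in WT 0d, counted as the share of probe sets with a lower mean, and at 74.6% in WT 5d. The corresponding shares for BIP3 were 36.3% and 78.9%, for BZIP60 84.3% and 94.1%, and for Hsp70-2 63.3% and 90.9%. Levels of different probe sets on an array are not compared with each other beyond this, because probes differ in how brightly they bind.

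**Figure D1:**
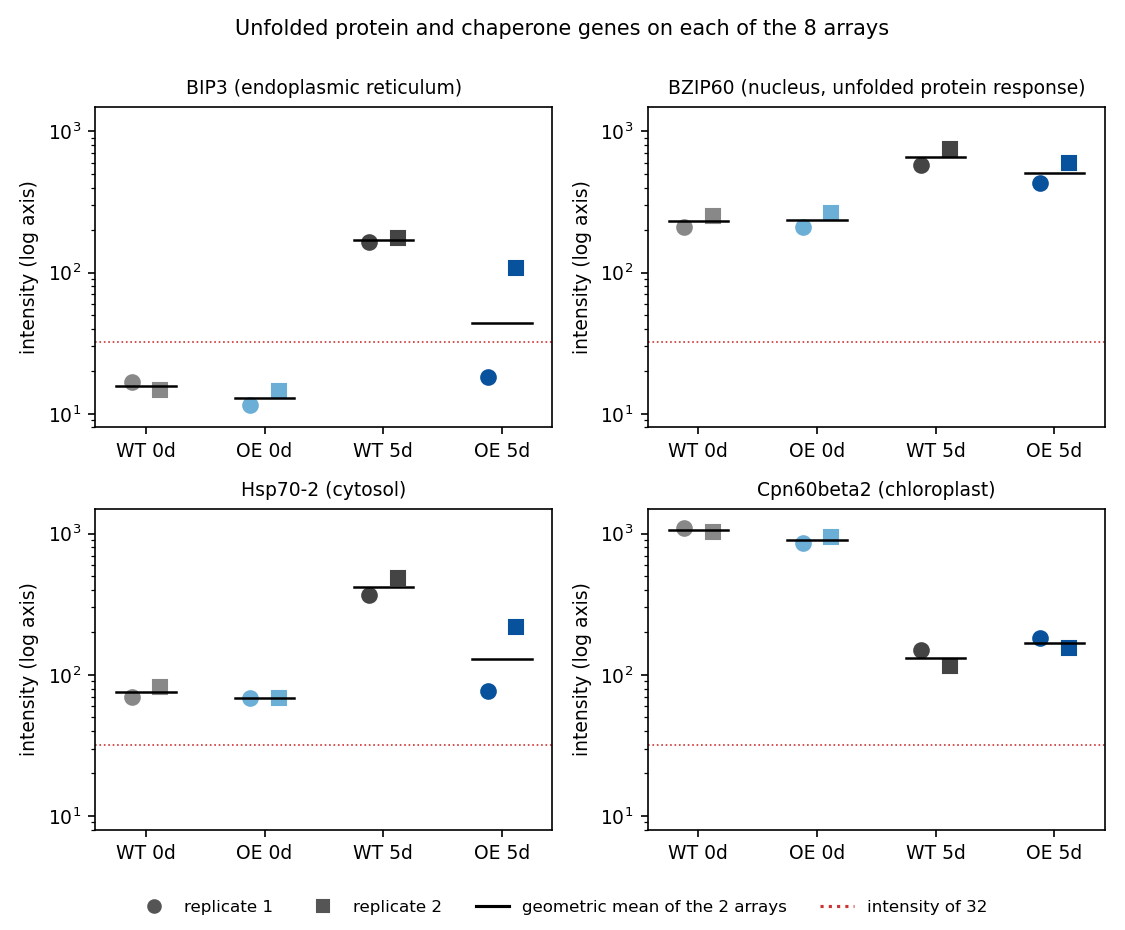
Intensity (log axis) of BIP3, BZIP60, Hsp70-2 and Cpn60beta2 on each array of the 4 groups, with circles for replicate 1, squares for replicate 2, a bar at the geometric mean of the 2 arrays and a dotted line at an intensity of 32. BIP3 and Hsp70-2 are split on the OE 5d arrays (18.2 and 107, 76.5 and 218), while Cpn60beta2 is lower on all 5d arrays (115 to 183) than on all 0d arrays (853 to 1103).

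In WT, therefore, the 3 transcripts of the endoplasmic reticulum, its stress regulator and the cytosol rose by 10.9-fold, 2.85-fold and 5.55-fold, and that of the chloroplast was 8.10-fold lower, where the size for BIP3 is uncertain and is 5.33-fold with values under 32 set to 32. On the whole array 15.7% of probe sets rose and 14.8% fell with drought in WT. The 4 genes were chosen with results of these arrays known, so their share is not read against that background. Of the 4 genes, OE had 1 that rose and 1 that fell. On the whole array 7.06% and 6.53% of probe sets did so in OE, and for the same reason the 4 are not read against these shares. The fold sizes in OE were 3.39 for BIP3 (1.83 with values under 32 set to 32), 2.15 for BZIP60, 1.89 for Hsp70-2 and 5.35, lower, for Cpn60beta2. At the study's threshold, a fold change above 2 or below 0.5 with an unadjusted p under 0.05, BIP3 was called higher in OE 5d than in OE 0d too (unadjusted p = 0.0278), as were 3.87% of all probe sets.

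Before drought the genotypes were not told apart at any of the 4 genes. The log2 differences between OE 0d and WT 0d were -0.28 for BIP3 (95% interval -1.79 to 1.24), 0.03 for BZIP60 (-0.47 to 0.54), -0.14 for Hsp70-2 (-1.10 to 0.82) and -0.25 for Cpn60beta2 (-0.65 to 0.15). By limma 0 of 4 passed, with adjusted p from 0.776 to 0.987, and 0 of 4 had an unadjusted p under 0.05. Among all probe sets 0.0791% passed in either direction, and 8.41% had an unadjusted p under 0.05. BIP3 was under 32 in both groups, so its value there is no measured difference. The intervals leave room for a difference of more than 2-fold in Hsp70-2, and of less than that in BZIP60 and Cpn60beta2.

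After 5 d without watering, BIP3 and Hsp70-2 had lower values in OE, but the differences did not pass the test over all probe sets. The log2 difference between OE 5d and WT 5d was -1.95 for BIP3 (95% interval -3.47 to -0.44, adjusted p = 0.243) and -1.70 for Hsp70-2 (95% interval -2.66 to -0.74, adjusted p = 0.181). On both genes the OE 5d arrays were below both WT 5d arrays, but the share of all probe sets with such an order is not given here. For BZIP60 the difference was -0.37 (95% interval -0.88 to 0.14, adjusted p = 0.444), and for Cpn60beta2 it was 0.35 (95% interval -0.05 to 0.75, adjusted p = 0.363). By limma 0 of 4 passed, and 2 of 4 had an unadjusted p under 0.05, 0.0178 for BIP3 and 0.00347 for Hsp70-2. Among all probe sets 0.0484% passed in this comparison, and 15.9% had an unadjusted p under 0.05. At the study's threshold both BIP3 and Hsp70-2 were called lower, as were 0.725% of all probe sets.

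How far the drought response of OE departed from that of WT (OE minus WT) was tested as the interaction of genotype and time, which 0.0308% of all probe sets passed. It was -1.68 on the log2 scale for BIP3 (95% interval -3.82 to 0.47, adjusted p = 0.441), -0.41 for BZIP60 (-1.13 to 0.32, adjusted p = 0.584), -1.56 for Hsp70-2 (-2.91 to -0.20, adjusted p = 0.283) and 0.60 for Cpn60beta2 (0.03 to 1.16, adjusted p = 0.313). By limma 0 of 4 passed and 2 had an unadjusted p under 0.05, 0.0290 for Hsp70-2 and 0.0407 for Cpn60beta2. Over all probe sets 14.8% had an unadjusted p under 0.05. All 4 values had the sign of a smaller change in OE. The comparisons share arrays, so this sign is no separate finding from those of the groups above.

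**Figure D2:**
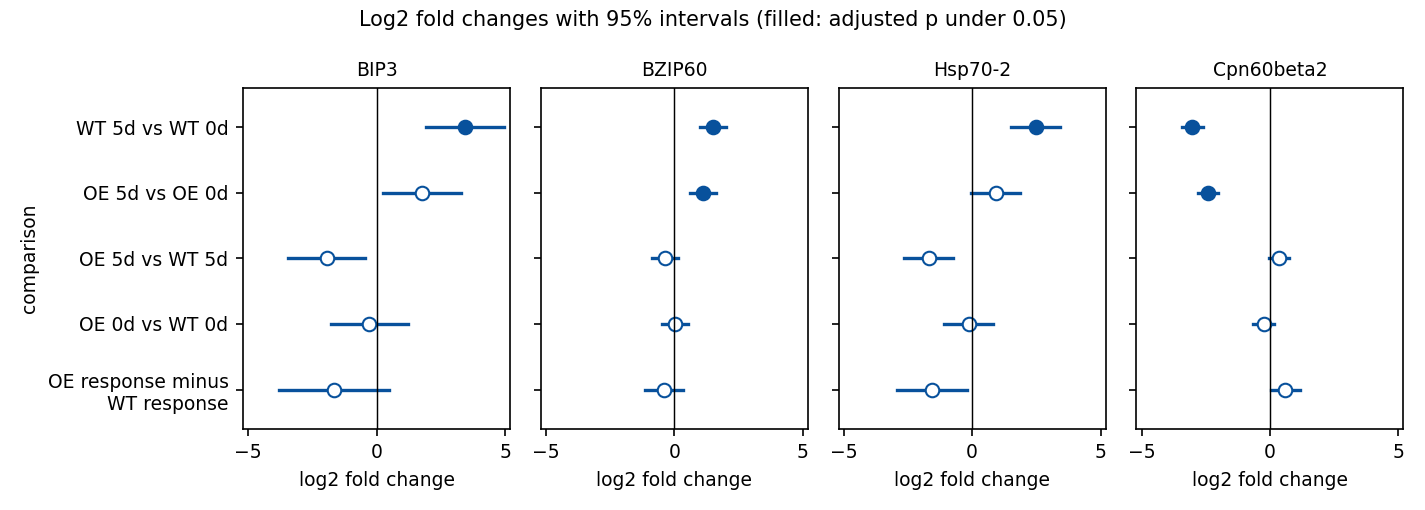
Log2 fold change with its 95% interval for the 4 genes (panels) in each comparison (rows), from limma over all 8 arrays, with filled points where the adjusted p was under 0.05. Filled points stand in WT 5d vs WT 0d for all 4 genes (3.44, 1.51, 2.47 and -3.02) and in OE 5d vs OE 0d for BZIP60 (1.11) and Cpn60beta2 (-2.42).

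The 2 OE 5d arrays placed the genes differently. Set against the OE 0d mean, replicate 1 was 0.49 higher on the log2 scale for BIP3 and replicate 2 was 3.04 higher, which are 14.2% and 88.3% of the change in WT. These values rest on BIP3 intensities under 32, on all 0d arrays and on OE 5d replicate 1, and with values under 32 set to 32 they are 0.00 and 1.74, or 0% and 72.2%. For Hsp70-2 the values were 0.16 and 1.67, or 6.41% and 67.6% of the WT change. For BZIP60 they were 0.86 and 1.35, or 57.3% and 89.1%. Replicate 1 was thus nearer to OE 0d for Hsp70-2 than for BZIP60, and for BIP3 it was under 32. For Cpn60beta2 both arrays were alike, at -2.30 and -2.54, or 76.1% and 84.3% of the WT fall. Replicate 2 was 5.86 times replicate 1 for BIP3, or 3.34 times with replicate 1 set to 32, 2.85 times for Hsp70-2, 1.40 times for BZIP60 and 0.843 times for Cpn60beta2. The calls of BIP3 and Hsp70-2 turned on these arrays: without OE 5d replicate 2 their differences from WT 5d were -3.23 and -2.46 (adjusted p = 0.000323 and 0.000754), and without replicate 1 their rises in OE were 3.04 and 1.67 (adjusted p = 0.000102 and 0.000835). Over all probe sets 10.3% passed as lower in the former fit and 11.7% as higher in the latter. Without OE 5d replicate 2 the interaction passed as well, at -2.95 for BIP3 (adjusted p = 0.000975) and -2.31 for Hsp70-2 (adjusted p = 0.00194), as it did for 18.3% of all probe sets. In these fits a lone array is assumed to vary like the other groups. What sets the 2 pools apart was not tested.

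For context, 11 lists with 150 genes of protein folding were drawn up by compartment, the 4 genes among them. Of the 150, 45 had a probe set named by the probe annotation for them alone, BZIP60, Hsp70-2 and Cpn60beta2 included. Every list but that of CCT therefore covers under 80% of its genes, and the counts describe the measured ones. In WT, 10 rose and 15 fell with drought and 20 did not pass, where 15.7% of all probe sets rose and 14.8% fell. In OE 3 rose, 4 fell and 38 did not pass, beside 7.06% and 6.53% of all probe sets that rose and fell. Between the genotypes at 0d, at 5d and in the interaction, 0 of 45 passed by limma, with 7, 11 and 13 at an unadjusted p under 0.05. Over all probe sets 8.41%, 15.9% and 14.8% were under it. The median log2 fold change of the 45 was 0.14 in WT and -0.03 in OE, beside 0.01 and -0.01 over all probe sets.

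For the endoplasmic reticulum, 14 of 47 listed genes were measured. In WT 5 of them rose and 0 fell, against 15.7% and 14.8% of all probe sets, with a median log2 fold change of 0.56. An unadjusted p under 0.05 was found for 9, all of them higher, and for 39.7% of all probe sets in either direction. Among the regulators, BZIP28, a membrane-bound transcription factor released by proteolysis under stress, went from 123 and 112 in WT 0d to 198 and 194 in WT 5d, a rise of 0.74 (adjusted p = 0.0359). Its OE values were 119 and 122 at 0d and 112 and 184 at 5d, so that OE 5d replicate 1 lay below its 0d arrays and replicate 2 near WT 5d. BZIP17, its relative, and S1P, the site-1 protease that processes membrane-bound factors of this kind, had log2 fold changes of 0.61 and 0.14 in WT (adjusted p = 0.0875 and 0.507).

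Among folding factors, the J-domain protein gene ATERDJ3B, whose product works with BiP, had intensities of 458 and 396 in WT 0d, 379 and 355 in OE 0d, 1092 and 1402 in WT 5d, and 527 and 1117 in OE 5d. All 5d arrays were above the 0d arrays, and OE 5d replicate 1 was the lowest of them. It rose by 1.54 in WT (adjusted p = 0.00779) and had a change of 1.06 in OE (adjusted p = 0.0627). The lumenal calcium-binding chaperone gene CRT1b and the translocation-linked J-domain gene ATERDJ2A did not pass in WT (0.45 and 0.13, adjusted p = 0.353 and 0.593), nor did PDIL5-1, a protein disulfide isomerase-like gene (0.21, adjusted p = 0.460). Outside the counts, because like BIP3 they were named from the table of called genes and were thus chosen on these samples, stood the calreticulin gene CRT3 and the disulfide isomerase-like gene PDIL2-2. CRT3 had 485 and 353 in WT 0d, 445 and 345 in OE 0d, 2046 and 2320 in WT 5d, and 840 and 1523 in OE 5d, with rises of 2.40 in WT and 1.53 in OE (adjusted p = 0.00115 and 0.0138). PDIL2-2 rose by 1.65 in WT (adjusted p = 0.00566) and had a change of 1.13 in OE (adjusted p = 0.0502).

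The derlins are part of the machinery that removes misfolded proteins from the endoplasmic reticulum. Among their genes, DER2.1 was at 183 and 204 in WT 0d, 204 and 211 in OE 0d, 344 and 344 in WT 5d, and 341 and 423 in OE 5d, and it rose by 0.83 in WT and 0.87 in OE (adjusted p = 0.00450 and 0.00991). DER2.2 rose by 0.67 in OE (adjusted p = 0.0295) and had a change of 0.44 in WT (adjusted p = 0.0704). DER1 rose by 0.65 in WT (adjusted p = 0.0219) on its brighter probe set, while a further probe set of the gene, at 3.98 to 4.55 on all arrays, had a change of 0.00 (adjusted p = 0.991). In OE as a whole 3 of the 14 rose and 0 fell, against 7.06% and 6.53% of all probe sets. The 3 were BZIP60, DER2.1 and DER2.2, and the median of the 14 was 0.36. Without OE 5d replicate 1, 6 of the 14 rose in OE and 10 in WT, against 11.7% and 19.3% of all probe sets. Without replicate 2, 4 rose and 1 fell in OE and 10 rose in WT, against 7.81%, 7.65% and 19.3%.

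For cytosolic Hsp70 and Hsp90 proteins and their partners, 9 of 28 listed genes were measured. In WT 4 rose and 1 fell, against 15.7% and 14.8% of all probe sets, with a median of 0.85. In OE 0 passed in either direction by limma, where 7.06% of all probe sets rose and 6.53% fell. The OE median was 0.10, and 2 of 9 had an unadjusted p under 0.05, as did 27.9% of all probe sets. Besides Hsp70-2, the genes that rose in WT were ROF2 (At5g48570), SGT1A and Fes1A. ROF2, which encodes a peptidyl-prolyl isomerase, rose by 2.08 (adjusted p = 0.00276). SGT1A, a partner of Hsp90 in immune receptor folding, rose by 1.71 (adjusted p = 0.00228). Fes1A, a nucleotide exchange factor of Hsp70, rose by 1.08 (adjusted p = 0.0362). SGT1A had 182 and 157 in WT 0d, 184 and 198 in OE 0d, 468 and 653 in WT 5d, and 219 and 367 in OE 5d. The order of the 5d arrays was that of Hsp70-2, with both OE arrays below both WT arrays and replicate 1 the lower. By limma the difference of SGT1A between OE 5d and WT 5d did not pass (adjusted p = 0.196). Hop1, which bridges Hsp70 and Hsp90, fell in WT by 0.73 (adjusted p = 0.0236). A further locus of the cytosolic Hsp70 list, At3g09440, went from 444 and 475 to 736 and 931 in WT, and from 382 and 444 to 248 and 511 in OE, changes of 0.85 and -0.21 that did not pass (adjusted p = 0.0711 and 0.739).

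All 9 of these cytosolic genes had lower means in OE 5d than in WT 5d, with a median of -0.92, beside 0.00 over all probe sets. One of them, Hop3, was under 32 on all arrays and differed by -0.11. By limma 0 of the 9 passed this comparison, and 5 had an unadjusted p under 0.05, as did 15.9% of all probe sets. A negative difference was not limited to this list. Of the 14 endoplasmic reticulum genes, 10 had a negative and 4 a positive log2 difference between the genotypes at 5d, with a median of -0.36. For the 7 chloroplast genes 2 were negative and 5 positive, with a median of 0.27. By limma 0 passed in either list, with 3 and 1 at an unadjusted p under 0.05. The 9 values rest on the same arrays, so their shared direction is no repeated finding. All 9 were also higher on OE 5d replicate 2 than on replicate 1, as were 10765 of 22746 probe sets. Their median was 0.78 on the log2 scale, where the median over all probe sets was -0.02. The WT 5d arrays shared part of this shift, with replicate 2 higher for 8 of the 9 and a median of 0.34. Over all probe sets 13143 of 22746 were higher on WT 5d replicate 2, with a median of 0.05. Without OE 5d replicate 2, 6 of the 9 passed as lower in OE 5d, in a fit where 10.3% of all probe sets did. Without replicate 1, 0 of the 9 passed, with a median of -0.48, and 0.0484% of all probe sets did. With drought in OE, 3 of the 9 fell without replicate 2 and 3 rose without replicate 1, against 7.65% and 11.7% of all probe sets.

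The cytosolic chaperonin CCT moved the other way. Of 8 listed loci 7 were measured, and WT showed falls for all 7, where 14.8% of all probe sets fell. The changes ran from -1.44 to -0.96 on the log2 scale, with a median of -1.18 (adjusted p from 0.00121 to 0.00367). At3g03960 showed the largest of these falls, from 478 and 435 in WT 0d to 161 and 177 in WT 5d, with 282 and 343 in OE 0d and 227 and 174 in OE 5d. It was also the 1 locus of the 7 that fell in OE (-0.65, adjusted p = 0.0473), where 6.53% of all probe sets fell. The OE median was -0.47, and 5 of 7 had an unadjusted p under 0.05, as did 27.9% of all probe sets. Before drought all 7 had lower means in OE, by 0.34 to 0.55, and after it all 7 had higher means, by 0.13 to 0.38. By limma 0 of 7 passed in either comparison, with 6 and 0 at an unadjusted p under 0.05, and 0 of 7 passed the interaction, with 6. Over all probe sets 8.41%, 15.9% and 14.8% had an unadjusted p under 0.05. The median differences over all probe sets were -0.01 before drought and 0.00 after it. All 7 loci were lower on OE 5d replicate 2 than on replicate 1. Their median difference between OE 5d and WT 5d was 0.02 without replicate 1 and 0.43 without replicate 2. The 7 values rest on the same arrays, so their shared directions are no repeated finding. Without OE 5d replicate 1, 5 of 7 fell in OE, against 13.1% of all probe sets, and without replicate 2, 0 did, against 7.65%.

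In the chloroplast 7 of 23 listed genes were measured. In WT 6 of them fell and 0 rose, against 14.8% and 15.7% of all probe sets, with a median of -0.90. All 4 measured loci of the chaperonin list fell. Besides Cpn60beta2 these were the beta subunit genes Cpn60beta3, by 0.90 (adjusted p = 0.0285), and Cpn60beta4, by 0.61 (adjusted p = 0.0145), and At3g60210, by 1.09 (adjusted p = 0.00498). The arrays of Cpn60beta3 went from 151 and 146 to 87.6 and 72.6 in WT and from 114 and 103 to 128 and 72.2 in OE. Cpn60beta4 went from 103 and 119 to 75.1 and 69.9 in WT and from 127 and 147 to 70.5 and 73.2 in OE, a fall of 0.93 there (adjusted p = 0.00740). Of the other chloroplast folding and assembly loci, At5g55220 fell in both genotypes (-1.80 in WT and -1.49 in OE, adjusted p = 0.00109 and 0.00574), and At3g04550 by 0.67 in WT (adjusted p = 0.0287). In OE 3 of 7 fell, with a median of -0.63, where 6.53% of all probe sets fell. The OE median was -0.79 without OE 5d replicate 1 and -0.46 without replicate 2. RCA, which acts on the assembled Rubisco, did not pass in either genotype (0.11 in WT and -0.28 in OE, adjusted p = 0.641 and 0.264).

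**Figure D3:**
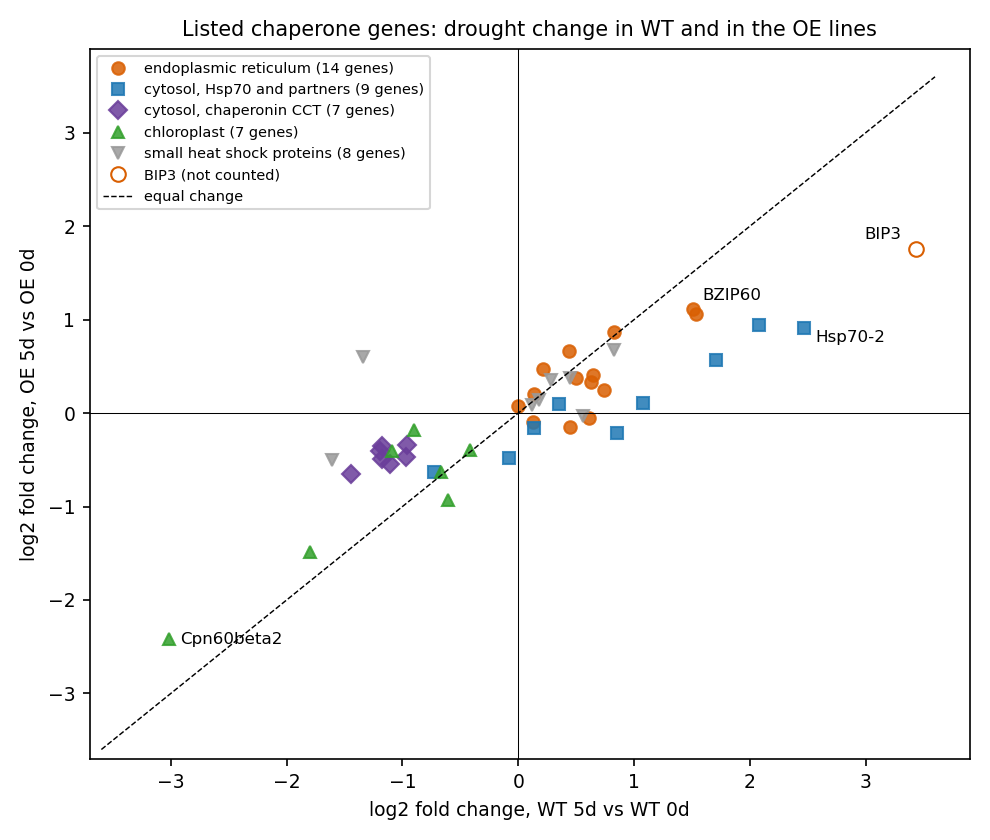
Log2 fold change with drought in WT (horizontal) against that in OE (vertical) for the 45 measured genes of the compartment lists, 1 point per gene, with BIP3 as an open point and a dashed line where both would be equal. Genes of the endoplasmic reticulum have a median of 0.56 in WT and 0.36 in OE, cytosolic Hsp70 and partner genes 0.85 and 0.10, CCT genes -1.18 and -0.47, and chloroplast genes -0.90 and -0.63.

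Small heat shock proteins, which hold unfolded proteins in solution and are the usual sign of a heat shock response, were mostly dim here. Of 17 listed genes 8 were measured in the counts, and 6 of these were under 32 on all arrays, among them ATHSP22.0 of the endoplasmic reticulum at 7.27 to 11.9. In WT 1 rose and 1 fell, against 15.7% and 14.8% of all probe sets. The riser, At5g37670, was one of the dim ones (13.1 and 13.3 to 17.3 and 18.8, adjusted p = 0.0340). At4g21870 fell by 1.61 (adjusted p = 0.0200), from 437 and 540 to 135 and 189, while its OE arrays were 409 and 377 at 0d and 460 and 166 at 5d. Outside the counts, because the table of called genes named it, ACD32.1 was bright, at 234 and 246 in WT 0d, 447 and 389 in OE 0d, 811 and 631 in WT 5d, and 650 and 1041 in OE 5d. Its rise was 1.58 in WT and 0.98 in OE (adjusted p = 0.00209 and 0.0301). No gene of the lists for mitochondrial chaperones and for heat shock factors had a probe set that was named here.

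**Figure D4:**
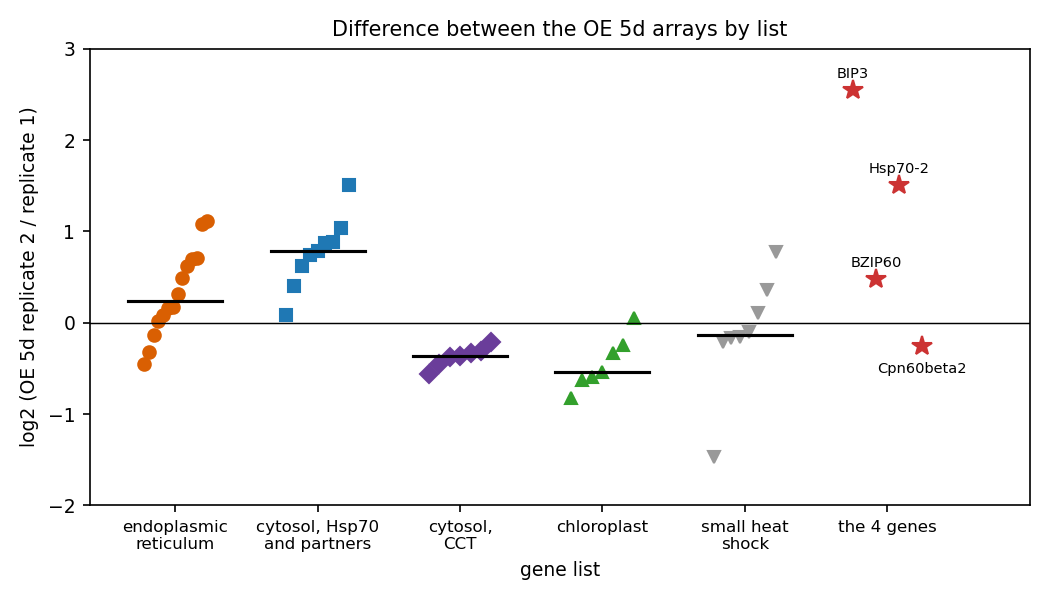
Log2 ratio of OE 5d replicate 2 to replicate 1 for the measured genes of each list, with a bar at the median of the list, and for the 4 genes as stars, where 0 means equal intensity. The medians are 0.24 for the endoplasmic reticulum, 0.78 for cytosolic Hsp70 and its partners, -0.36 for CCT, -0.54 for the chloroplast and -0.13 for small heat shock proteins.

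Over the 8 arrays the 4 transcripts formed a rising set and its opposite. Pearson's r of log2 intensity was 0.98 between BIP3 and Hsp70-2, 0.92 between BIP3 and BZIP60 and 0.90 between BZIP60 and Hsp70-2. Cpn60beta2 had r of -0.97 with BZIP60, -0.85 with BIP3 and -0.82 with Hsp70-2. These describe 8 arrays in 4 groups that differ mostly by time, and many transcripts share the pattern: 231 of 13436 named probe sets had r over 0.95 with BIP3, and of 13435 there were 330 with BZIP60, 178 with Hsp70-2 and 299 with Cpn60beta2.

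The nearest patterns to BIP3 were those of At5g38210 (r = 0.996), At4g03450 (0.993), At5g42050 (0.992), the glutamate receptor gene GLR1.4 (0.991) and At5g56350 (0.991). Those nearest to BZIP60 were At1g72900 (0.998), At4g39670 (0.997), At1g63720 (0.996), At3g54150 (0.992) and At1g23440 (0.991). For Hsp70-2 they were At5g26700 (0.995), At5g01960 (0.994), At1g73130, At2g27660 and At4g17660 (0.993 each). For Cpn60beta2 they were At1g06550 (0.997), At4g24830 and At1g12500 (0.996 each), At3g63510 and At3g58610 (0.995 each). Their changes in WT ranged more widely than these correlations, from 0.96 for At5g56350 to 2.63 for At4g03450 among the neighbours of BIP3, since r does not depend on the size of a change.

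Markers of other cell types and of leaf age were measured in part, with 1 gene each of 5 marker lists in the counts, 0 of the phloem list and 2 of 8 for leaf senescence. The senescence regulator WRKY53 rose in both genotypes, by 2.41 in WT and 2.66 in OE (adjusted p = 0.00174 and 0.00415). SAG101, which promotes senescence and acts in immunity, rose in WT by 1.41 (adjusted p = 0.0111) and was at 18.5 and 38.9 on the OE 5d arrays, against 19.7 and 16.5 in OE 0d. As for BIP3 and Hsp70-2, OE 5d replicate 2 of SAG101 was the higher, at 2.11 times replicate 1. PYK10, a beta-glucosidase of roots, went from 139 and 101 to 11.3 and 10.4 in WT and from 61.7 and 40.5 to 25.2 and 13.6 in OE. TRY of the trichome rose in WT by 0.89 (adjusted p = 0.0124). CER1 of the same list, an epidermal wax gene named by the table of called genes, fell in WT by 1.30 (adjusted p = 0.0270), from 478 and 431 to 262 and 129, and was at 420 and 420 in OE 0d and 441 and 239 in OE 5d. FMA of guard cells, at 27.0 to 42.5 on all arrays, did not pass (0.00 in WT, adjusted p = 0.993, and -0.30 in OE, adjusted p = 0.392). The part that leaf age or cell makeup has in the changes of the 4 genes was not tested.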

How the data were processed

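The authors deposited a linear intensity for each probe set of 8 ATH1 arrays, which a commercial service had hybridized with leaf RNA. The software that summarized and normalized them is not given in the sources used here. Array controls (64 of 22810 probe sets) were left out and log2 was taken. The test was limma 3.58.1 (lmFit and eBayes, R 4.3.3) with 4 group means over all 8 arrays, two-sided, with the Benjamini-Hochberg adjustment across the 22746 probe sets left. Python 3.11.15 with pandas 2.3.3, numpy 2.4.6 and matplotlib 3.10.9 made tables and plots. Precision is limited by the number of arrays, which carry no depth. Simulated data with known changes were used to test the fit.

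Names came from the platform's probe annotation, with locus tags and symbols of RefSeq (13436 probe sets with 1 gene and a locus tag, 503 with several genes, 8730 not listed). A supplementary table of called genes named 97 more, through its probe and locus columns. Its ratios between groups are the study's own comparisons and were not used. The rule for named genes took the 4 members and, for each, the 5 named probe sets with the highest r. Listed genes with a probe set of their own are counted, and values are given mainly for those that passed in either drought comparison; the others are named in part. The members and the lists were chosen with earlier results of these data known. As alternatives, each array was left out in turn, values under 32 were set to 32, dim probe sets were dropped, and the study's threshold was applied. Others were quantile normalization, median centring, a trended robust eBayes, a replicate block and fits to only the arrays compared.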

Additional observations from a re-analysis of the deposited data

Results flagged for a closer look

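At1g11660, a locus of the cytosolic Hsp70 list, was picked out because both WT 5d arrays were above both WT 0d arrays (134 and 154 against 130 and 131) while both OE 5d arrays were below both OE 0d arrays (121 and 129 against 139 and 141). The share of all probe sets with such an order of arrays is not given here, so the order is not read as a result. The drought change of At1g11660 in OE minus that in WT was -0.30 on the log2 scale. It did not pass the interaction test of limma (adjusted p = 0.491), and neither drought change passed (WT 0.14, adjusted p = 0.504, and OE -0.16, adjusted p = 0.503).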

How the results depend on the processing

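For the 4 genes, 146 of 152 values under other settings kept their direction and their side of the threshold, 3 lost the call, 3 gained one and 0 turned. With values under 32 set to 32, the rise of BIP3 in WT was 2.41 and that of BZIP60 in OE 1.11, and with the 4 arrays of the comparison alone the latter was 1.11, all no longer past the threshold. No BZIP60 value was under 32. The rise of BIP3 in WT kept its call with the 4 WT arrays alone (3.44, limma, adjusted p = 5.58e-05). At the study's threshold the differences of BIP3 (-1.95) and Hsp70-2 (-1.70) between OE 5d and WT 5d and the change of BIP3 in OE (1.76) were called. Of the listed genes, 10 rose in WT, but 5 with values under 32 set to 32 and 6 at the study's threshold. More rose in WT with the 4 WT arrays alone (14) and with median centring (12). In OE 3 rose, but 0 with the 4 arrays alone and 1 with values set to 32, and 4 fell, but 1 with the 4 arrays alone and 2 at the study's threshold. With the replicate number as a block, 20 of 20 calls of the 4 genes were the same (replicate block, BIP3 in WT 3.44, adjusted p = 0.00409; BZIP60 in OE 1.11, adjusted p = 0.00480), and 13 listed genes rose and 15 fell in WT. Same-numbered arrays deviated together with r of 0.0136 to 0.223 between groups, so the numbers were not taken to pair the arrays.

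With each array left out in turn, 150 of 160 values of the 4 genes kept direction and side. Between OE 5d and WT 5d, BIP3 ranged from -3.23 to -0.68 and Hsp70-2 from -2.46 to -0.94. In OE BIP3 ranged from 0.49 to 3.04, Hsp70-2 from 0.16 to 1.67 and BZIP60 from 0.86 to 1.35. The interaction ranged from -2.95 to -0.40 for BIP3 and from -2.31 to -0.80 for Hsp70-2. Between OE 0d and WT 0d, BZIP60 ranged from -0.13 to 0.20 and turned to -0.08 without WT 0d replicate 1 and to -0.13 without OE 0d replicate 2, far from any call. Listed genes that rose in WT numbered 5 (without WT 0d replicate 2) to 18 (without either OE 5d array) and those that fell 10 to 17. In OE 0 (without either OE 0d array) to 9 (without OE 5d replicate 1) rose and 1 (without OE 0d replicate 2) to 13 (without OE 5d replicate 1) fell. Except for the arrays and genes left out by a setting, the cause of these changes was not tested. Signal limits BIP3 before drought, where all 4 arrays were under 32.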
